A study of Homo sapiens with 2 samples.

Results

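Transcribed loci without a gene name, at least 400 bp long, were described in a table of RNA sequencing from hypoxic PLC/PRF/5 cells, a long-established line from a human liver cancer. The table covers 2 libraries. The control library came from cells with an empty vector. In the other, NFX1 was overexpressed, which encodes a transcription factor with zinc fingers. Both cultures were hypoxic, and there was 1 library per group, so every difference below is between these 2 libraries and has no replicate check. A locus was taken when its gene column held no symbol and its end minus its start was at least 400. Of 28658 rows, 1565 met this rule, which is 5.46% of the table and 1565 of its 1651 rows without a symbol. The other 86 unnamed rows were shorter. Next to the limit, the shortest loci kept spanned 401 and 402 bp (2.14 and 0.372 FPKM, and 2.76 and 2.03 FPKM, in the vector and the NFX1 library), and the longest left out spanned 397 bp each (5.51 and 5.94 FPKM, and 2.205 and 0.958 FPKM). FPKM is the number of fragments per kilobase of transcript, scaled to the depth of the library.

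An assembler such as Cufflinks joins overlapping reads into transcript models and names those that match a known gene. What stays unnamed can be RNA of unlisted genes, RNA that starts upstream of a promoter and runs away from the gene, RNA beyond a gene's end, RNA of repeats and enhancers, or reads placed on a near-identical copy of another sequence. Many active promoters of mammalian genes start transcription in both directions, and the upstream RNA is mostly short, unspliced and low in level. Without splice sites, an assembler cannot tell the strand of RNA from a library that does not mark it. No genome sequence of hg19, the build of these coordinates, was used here, so bases and repeats of the loci were not analysed.

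As a check of the labels, NFX1 itself (chr9:33290418-33371155) had 4.21 FPKM with the vector and 56.0 FPKM with NFX1. Of 11 marker genes of hepatocytes and hepatoma cells, 10 had at least 1 FPKM in both libraries. Of 12 markers of fibroblasts, endothelial cells and blood cells, none reached 1 FPKM, with a highest value of 0.488 FPKM. The unnamed loci took 0.219% of the summed FPKM of the vector library and 0.225% of that of the NFX1 library. The nearest of them to NFX1 lay 204057 bp away, at chr9:33575213-33575753, with 0.307 and 0.712 FPKM.

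The loci fell into 2 kinds by their place in the table. On each chromosome that carries them, rows are listed in 3 blocks of ascending position. By GENCODE's gene strands, 99.0% of the 11548 named rows of the first block lie on the plus strand and 98.9% of the 11193 of the second on the minus strand. The third block held 1414 of the 1565 loci (90.4%), 85 shorter unnamed rows and only 4 named rows, so it carries no strand. The first block held 73 loci and the second 78.

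Loci of the third block were short and weak, and those of the first and second blocks longer and stronger. The median length was 1200 bp in the third block and 5756 bp in the other blocks. Median levels in the vector and the NFX1 library were 0.420 and 0.450 FPKM for the third block, against 1.39 and 1.36 FPKM for the others. A value of at least 1 FPKM in a library was reached by 284 of 1414 third-block loci (20.1%) and by 101 of 151 of the others (66.9%). Over all 1565 loci, the middle 50% spanned 851 to 2145 bp and the longest 325472 bp. That length is not its own: rows that overlap are listed with 1 joint locus, and 62 loci share theirs, 29 with a named row and 33 with another unnamed locus only. The 5 longest all share a joint locus with a named row, namely those of CNTNAP4, ARHGAP32, SAMD4A, TSPEAR-AS1 with TSPEAR-AS2, and ARHGEF4. Of the 88 loci of at least 10000 bp, 54 have a shared locus.

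**Figure D1:**
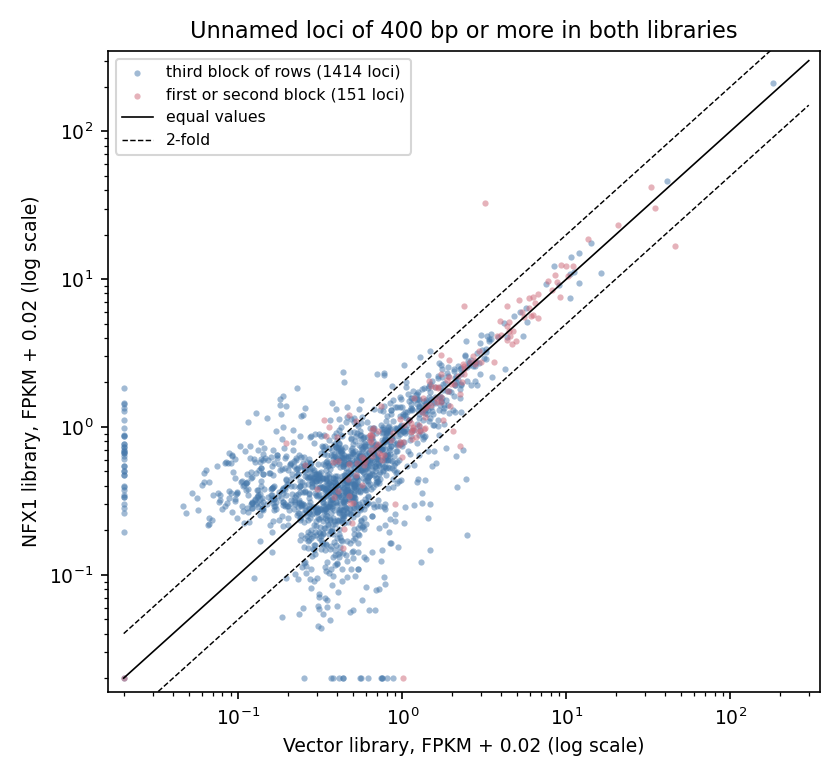
FPKM of the 1565 loci in the vector library (x axis) and in the NFX1 library (y axis), both with 0.02 added and on log scales, with third-block loci in blue and the others in red. The points widen around the line of equal values below about 1 FPKM, and the loci listed at 0 in 1 library form the straight rows at the left and bottom edges.

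The values of third-block loci could be turned back into whole fragments. For the 1373 of them with a locus of their own, FPKM times the length in kb, after 273.8 bp are taken off, times 36.592, gave a number within 0.1 of a whole one for 1332 of 1335 values above 0 in the vector library (99.8%). In the NFX1 library, with 273.6 bp and 42.038, this held for 1359 of 1361 values (99.9%). Values spread evenly would give 20%. With the same numbers, loci of the first and second blocks gave 15.4% and 27.1% over 130 loci with a locus of their own, so their counted length is not the span of the locus and no fragments are given for them. For the third block the whole span was counted, with no intron taken out. The NFX1 library was 1.15 times as deep as the vector library by this scale.

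Most of these loci rested on few fragments. The median locus had 13 fragments in the vector library and 15 in the NFX1 library, and the upper 5% began at 103 and 114 fragments. In 1301 of 1373 loci (94.8%) the larger of both counts was at least 10, and in 327 loci (23.8%) it was 10 to 12. A count of 10 in the vector library corresponds to 1.55 FPKM for a locus of 450 bp and to 0.295 FPKM at 1200 bp. The same FPKM therefore stands for fewer fragments in a shorter locus. Over all 1565 loci of any block, the median of the mean FPKM was 1.29 for the 62 of 400 to under 500 bp. It was 0.343 for the 385 of 1000 to under 1500 bp, 374 of them in the third block. For the 281 of 2000 to under 5000 bp, 240 of them in the third block, it was 0.469.

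**Figure D2:**
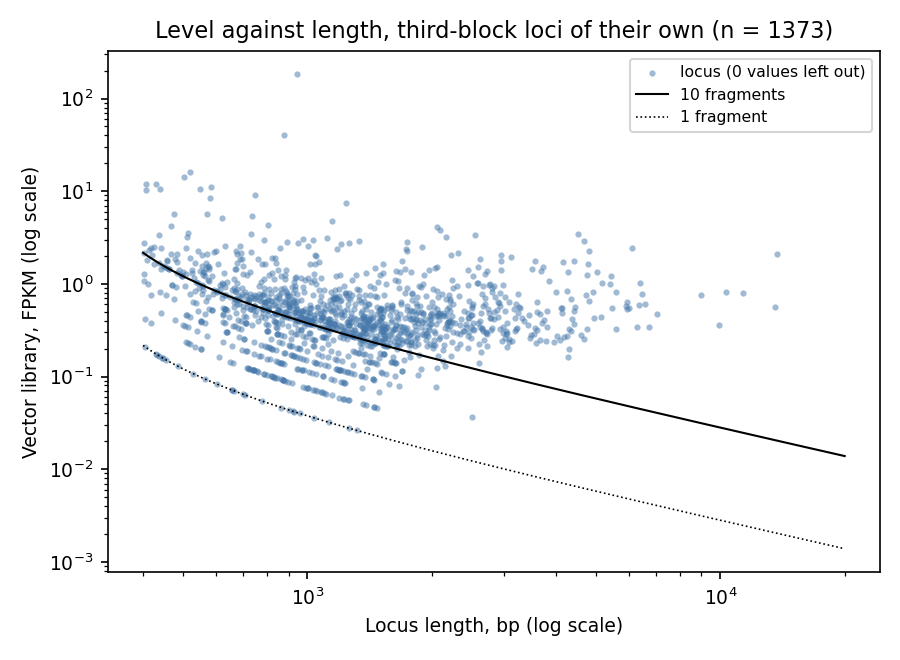
FPKM in the vector library (y axis, log scale) against length in bp (x axis, log scale) for the third-block loci with a locus of their own, without values of 0. The solid line marks 10 fragments and the dotted line 1 fragment; the low values lie on the curves of whole fragments, and nearly all loci longer than about 2000 bp lie above 10.

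Most loci lay within 10 kb of a named row, and those within 1 kb lay mostly before the gene's start. The median gap from edge to edge to the nearest named row was 4638 bp. Within 10 kb lay 997 of 1565 loci, 63.7% (95% exact binomial interval 61.3 to 66.1), and within 1 kb 415 loci (26.5%). The interval treats loci as independent, though 497 of 1542 distinct loci had another within 10 kb. Among the 86 shorter unnamed rows the share within 10 kb was 59.3% and that within 1 kb 31.4%, so nearness was not particular to the loci. How near other positions of the genome lie to named rows was not tested. The smallest gap above 0 was 15 bp, and the 29 loci at a gap of 0 are those that share a joint locus with a named row. The nearest named row had at least 1 FPKM in a library for 74.1% of the loci, while 42.3% of all single-symbol rows did. That share was 87.8% (339 of 386) at a gap of 1 to 1000 bp and 38.5% (35 of 91) beyond 100 kb. Where several named rows share 1 joint locus, the most abundant of them stands for it. This can raise the shares for nearest rows, while the 42.3% counts every single-symbol row, so the shares are not counted alike.

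The side of the gene could be told for 1079 loci, whose nearest locus holds 1 named row with a GENCODE strand. Within 1 kb, 255 of 279 lay upstream, 91.4% (95% exact binomial interval 87.5 to 94.4). Beyond 1 kb, 388 of 800 lay upstream, 48.5% (interval 45.0 to 52.0). These intervals too treat neighbouring loci as independent. From 1 to 10 kb the numbers were 200 upstream and 219 downstream. Whether the assembler joins RNA at a gene's end to that gene is not stated in the labels or the table, and its part in these numbers was not tested.

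**Figure D3:**
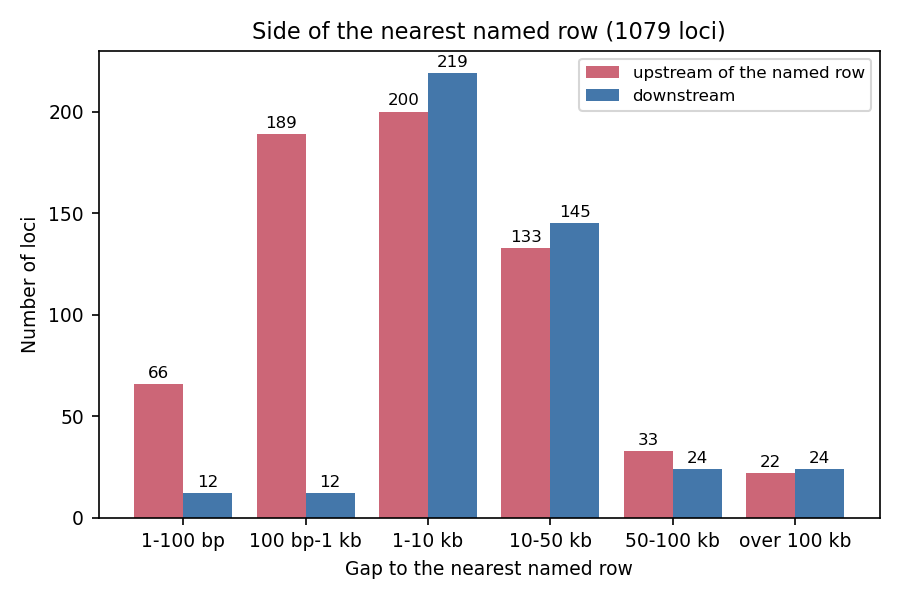
Number of loci (y axis) upstream (red) and downstream (blue) of their nearest named row, by the gap to it (x axis), for the 1079 loci whose side could be told. Up to 1 kb the upstream bars are the taller ones, with 66 against 12 and 189 against 12, and at greater gaps both sides are alike in number.

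The upstream loci within 1 kb were short and far below their gene, which was not particular to them. Their median length was 1039 bp, with medians of 0.482 and 0.580 FPKM in the vector and the NFX1 library. The named rows next to them had medians of 8.76 and 9.08 FPKM. The 24 downstream loci within 1 kb had a median length of 1596.5 bp and medians of 0.400 and 0.395 FPKM. Their named rows had medians of 3.62 and 3.02 FPKM. Over all loci the median length was 1282 bp, with medians of 0.452 and 0.494 FPKM. Spearman's rho between the level of the locus and that of its gene was 0.05 across the 66 upstream loci at a gap of 1 to 100 bp. It was 0.16 across the 189 at 101 to 1000 bp and 0.05 across all 643 upstream loci at any gap. These are loci of the same 2 libraries that share their depth. For loci of the first and second blocks, the strand of the block can be set beside that of the gene. Of 28 such loci upstream within 10 kb, 19 were on the strand opposite to the gene and 9 on the same strand. Of 16 downstream, 8 were on each. At any distance, 31 of 52 upstream loci were on the opposite strand and 21 on the same. Of 41 downstream, 20 were on the opposite strand and 21 on the same.

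Among the loci within 1 kb upstream, those with the highest levels were chosen as examples after their values were seen. The first, chr6:34664735-34665244, lies 107 bp before C6orf106 and had 32.9 and 41.6 FPKM, close to the gene's 34.1 and 36.2 FPKM. The locus before LRRC27 (chr10:134137282-134145318, gap 295 bp) had 8.54 and 10.7 FPKM, more than the gene's 3.81 and 3.30 FPKM. The locus before the phospholipase gene PLD2 (chr17:4704456-4710324, gap 71 bp) had 7.66 and 9.70 FPKM and PLD2 itself 16.8 and 19.6 FPKM. These 3 loci had the higher value in the NFX1 library.

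The locus next to TERT, the gene of the catalytic subunit of telomerase and a gene known to be regulated by NFX1 proteins, is among them. It spans chr5:1295265-1297797 and begins 76 bp from the TERT row, in the block of the plus strand, while TERT lies on the minus strand. Its levels were 6.22 FPKM with the vector and 7.54 FPKM with NFX1, above TERT's own 2.56 and 3.09 FPKM. The change of the locus, log2((NFX1 FPKM + 1)/(vector FPKM + 1)), was 0.24.

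Unspliced examples have counts. The locus 73 bp before MED13, a subunit of the Mediator complex (chr17:60142717-60143338), had 5.18 and 6.01 FPKM from 66 and 88 fragments, a fold of 1.16 with a 95% exact interval of 0.834 to 1.62. The one before ZMYM5 (chr13:20438066-20440126, gap 267 bp) had 270 and 379 fragments, a fold of 1.22 (1.04 to 1.43). The one before KDM2A, a histone demethylase gene (chr11:66885128-66886242, gap 497 bp), had 96 and 102 fragments, a fold of 0.925 (0.693 to 1.24). Folds here are fragments in the NFX1 library over those in the vector library, divided by the depth ratio, and their intervals cover counting error only.

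Summed over loci, fragments upstream within 1 kb were slightly more frequent in the NFX1 library. The 234 third-block loci there summed to 5071 fragments in the vector library and 6408 in the NFX1 library, a fold of 1.10 (95% exact interval 1.06 to 1.14). The 352 loci upstream beyond 1 kb gave 0.998 (0.973 to 1.02), the 369 downstream beyond 1 kb 1.02 (0.997 to 1.05), and the 20 downstream within 1 kb 0.990 (0.897 to 1.09). Of the 54 upstream loci within 1 kb with over 50 fragments, 34 were higher in the NFX1 library. In the 67 loci over 100 kb from a named row the fold was 0.951 (0.891 to 1.02). These intervals pool the fragments of all loci and leave out the spread between loci. Among loci with over 50 fragments, the log2 fold ran from -1.04 to 1.27 upstream within 1 kb. Upstream beyond 1 kb it ran from -1.10 to 0.889. The median upstream locus within 1 kb had 12 and 14 fragments, and loci with few fragments could enter through their higher library. With 1 library per group these differences cannot be told apart from differences between libraries.

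The most abundant locus was chr1:564461-565405, of 945 bp, with 182 FPKM (vector) and 211 FPKM (NFX1), or 4468 and 5957 fragments. It lies in a stretch of chromosome 1 that is a nuclear copy of mitochondrial DNA, next to LOC101928626 (71 bp away and listed at 0 in both libraries). Its fold was 1.16 with a counting interval of 1.12 to 1.21, and it held 10.3% and 11.4% of the fragments of the 1373 loci. How many of these fragments came from mitochondrial RNA was not tested. The next third-block locus was chr7:55840763-55841641, at 40.8 and 46.3 FPKM from 903 and 1178 fragments, a fold of 1.14 (1.04 to 1.24). Its nearest named row, SEPT14, was 19595 bp away and listed at 0.

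Further abundant loci of the third block were small. The locus chr16:3054102-3054603 had 118 and 167 fragments (14.1 and 17.4 FPKM, fold 1.23, interval 0.967 to 1.57), and chr11:58345951-58346470, 116 bp from the row of CNTF and ZFP91, had 147 and 114 (16.3 and 11.0 FPKM, fold 0.675, interval 0.524 to 0.868). The locus chr3:186544939-186545345, between LOC102724699 and the adiponectin gene ADIPOQ, had 58 and 85 fragments (11.8 and 15.1 FPKM, fold 1.28, interval 0.903 to 1.81). The locus chr11:76155295-76155843, 104 bp from C11orf30, had 107 and 164 fragments (10.6 and 14.2 FPKM, fold 1.33, interval 1.04 to 1.72). On chromosome 17, chr17:41651297-41651881 had 126 and 145 fragments (11.1 and 11.1 FPKM, fold 1.00, interval 0.784 to 1.28), while ETV4, 27496 bp away, had 97.3 and 122 FPKM. Of these 5 loci, 1 was lower in the NFX1 library and had an interval below 1, and the interval of 3 others included 1.

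Most of the remaining abundant loci were in the strand-bearing blocks. The locus chr3:148942037-148944101, 2183 bp from the joint locus of CP and HPS3, had 34.6 and 29.98 FPKM. CP, which encodes ceruloplasmin, a copper-binding plasma protein made by the liver, had 246 and 188 FPKM. The locus chr1:144013898-144053651 had 20.6 and 23.1 FPKM, and chr7:65958657-65960463 had 13.5 and 18.6 FPKM. The locus chr1:200380736-200443744, 1290 bp before ZNF281, a zinc-finger gene, had 10.9 and 12.3 FPKM against 7.77 and 6.91 FPKM for the gene. On chromosome 14, chr14:106786826-106938390 in the immunoglobulin heavy chain region had 9.95 and 12.3 FPKM, 54 bp from LINC00221 (8.92 and 9.28 FPKM); its locus is shared with another unnamed row. Of these 5 loci, the first had the lower value in the NFX1 library and the other 4 the higher.

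Some loci lay in gene deserts. The farthest from any named row, chr1:194614353-194617301, was 1279269 bp from LINC01031. It had 171 and 216 fragments (1.75 and 1.92 FPKM), a fold of 1.10 (0.895 to 1.35). The next, chr1:188334676-188335468, had 7 and 16 fragments at 1005299 bp from LINC01036, and chr4:18901882-18903001 had 12 and 2 fragments at 878398 bp from the joint locus of NCAPG, a condensin subunit gene. The nearest rows LINC01031 and LINC01036 were listed at 0 in both libraries.

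The loci were spread over chromosomes 1 to 22 and X, and none lay on another sequence of the build. Against the named rows of each chromosome they were most frequent on chromosome 21. There 52 loci stood beside 321 single-symbol rows, 16.2 per 100, while the whole table had 5.90 per 100. The next values were 8.44 on chromosome 15, 8.31 on chromosome 7 and 8.12 on chromosome 9, and the lowest among chromosomes with loci were 3.26 on X and 3.48 on chromosome 12. Chromosome Y had 111 single-symbol rows and no locus, but only 1 of these rows had at least 1 FPKM in a library. Counted against single-symbol rows with at least 1 FPKM in a library, chromosome 21 again had the highest value, 43.7 per 100 against 14.0 in the whole table. Of its 52 loci, 22 lay beyond 45 Mb, where 73 named rows lie, and 13 from 40 to 45 Mb, beside 65 named rows. The level on chromosome 21 was ordinary, with a median of the mean FPKM of 0.485 against 0.460 over all loci. The summed fragments of its 44 third-block loci gave a fold of 0.990. Without the most abundant locus, the fold of the chromosomes ranged from 0.919 on chromosome 6 to 1.19 on chromosome 22, and it was 1.03 over all.

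**Figure D4:**
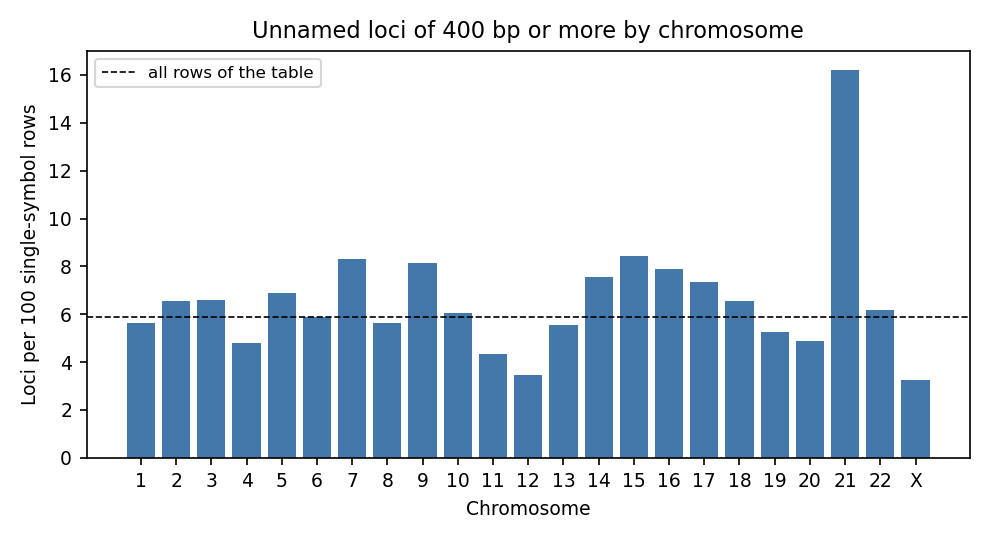
Unnamed loci of 400 bp or more per 100 rows with a single symbol (y axis) on each chromosome (x axis), with the value of the whole table as a dashed line. Chromosome 21 stands at 16.2, and the other chromosomes that carry loci between 3.26 and 8.44.

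Between the libraries, few of the loci differed by much on the FPKM scale. Of the 385 loci with at least 1 FPKM in a library, 16 were at least 2-fold higher in the NFX1 library and 6 at least 2-fold lower, by the change with 1 FPKM added, which understates the change of low values. Over all 11943 rows of the table at that level, 0.368% were at least 2-fold higher and 0.226% at least 2-fold lower. Among the loci these shares were 4.16% and 1.56%, and among single-symbol rows 0.116% and 0.0357%. A row entered by 1 FPKM in either library, so short loci with few fragments could enter through their higher library alone. The larger shares among the loci are therefore no result about them. With a minimum length of 600 bp, 3 of 274 loci were at least 2-fold higher and 1 at least 2-fold lower. Of the 385, 83.6% lay within 1.5-fold. The median change was 0.06, with 223 higher and 162 lower, against 0.01 over all rows.

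Where fragments could be recovered, in third-block loci with a locus of their own, the 2-fold differences lay among loci with few fragments. Nearly all loci had at least 10 fragments in the larger library, so a low total could come about only with unequal counts, and the share past 2-fold at low totals is no result. Of the 22 loci past 2-fold, 18 had recovered fragments; they held 10 to 18 fragments in both libraries together and were 401 to 556 bp long. On the scale of fragments, with 0.5 added to each count, 72.3% of the 481 loci with up to 20 fragments differed at least 2-fold. The shares were 22.6% of 252 loci with 21 to 30, 13.5% of 259 with 31 to 50, and 3.48% of 201 with 51 to 100. None of the 179 third-block loci with over 100 fragments differed 2-fold. Their median fold was 1.01, 96 were higher and 83 lower, and 90% of them lay between 0.670 and 1.47.

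**Figure D5:**
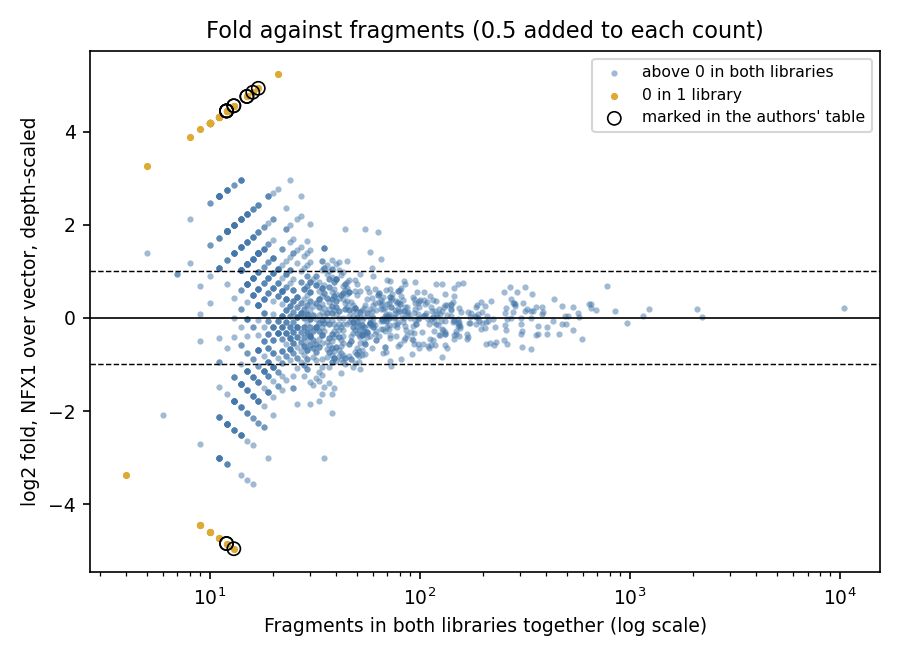
The log2 fold, NFX1 over vector after depth scaling and with 0.5 added to each count (y axis), against the fragments of both libraries together (x axis, log scale) for third-block loci with a locus of their own. Yellow points have 0 fragments in 1 library, so their height depends on the added 0.5 and is no bound; circles mark the 13 loci called in the authors' table, and beyond 100 fragments every point lies between the dashed 2-fold lines.

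The extremes among the well-counted loci of the third block were modest. The lowest fold was at chrX:9376884-9382017, 49317 bp before TBL1X, with 78 and 50 fragments (fold 0.558, interval 0.383 to 0.806). The next was at chr8:23336715-23340984, with 197 and 142 fragments (fold 0.627, interval 0.502 to 0.782). The highest were chr22:46409484-46411350, with 55 and 106 fragments (fold 1.68, interval 1.20 to 2.37), and chr21:44808511-44813109, 21288 bp beyond SIK1, a salt-inducible kinase gene, with 44 and 84 (fold 1.66, interval 1.14 to 2.45). Because they were picked as the extremes of 179, their intervals understate the error.

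For 4 loci past 2-fold no fragments were recovered. The greatest difference was at chr1:17215047-17216145, in the block of the minus strand and 24419 bp from CROCC, the gene of the ciliary rootlet protein rootletin. Its levels were 3.15 FPKM with the vector and 32.5 FPKM with NFX1, a change of 3.01, while CROCC had 39.7 and 43.2 FPKM. The next was chr16:67518012-67525983, 295 bp before AGRP, with 2.36 and 6.56 FPKM (change 1.17). AGRP, which encodes a neuropeptide of appetite control, was listed at 0 in both libraries. The third was chr6:19802151-19805267, which shares its joint locus with another unnamed row, with 0.418 and 1.998 FPKM (change 1.08). ID4, an inhibitor of DNA binding 32194 bp away, had 39.8 and 37.2 FPKM.

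The fourth was the only one of these that was lower. The locus chr19:50999791-51009184 had 46.1 FPKM with the vector and 16.7 FPKM with NFX1, a change of -1.42. It ends 69 bp from JOSD2, a deubiquitinase gene, which had 54.2 and 68.0 FPKM. In the authors' deposited table its p was 0.2146, and that of the locus near CROCC was 0.00245.

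The remaining 13 higher and 5 lower loci past 2-fold rested on small counts. They were picked by these same counts, and could enter through their higher library alone. The limits and intervals below therefore understate the error and are no check of the differences. At chr10:103456544-103456960, 1293 bp before FBXW4, there were 0 and 11 fragments, 3.19-fold higher in the NFX1 library when 3 fragments stand for the count of 0. The 95% exact lower limit, which includes the counting error of the 11, was 2.18-fold. FBXW4 had 28.8 and 32.8 FPKM. At chr7:5595728-5596190, 25495 bp before the actin gene ACTB, there were 0 and 10 fragments, with an exact lower limit of 1.95-fold, and the same counts were found at chr15:28572441-28572893 near HERC2 and at chr2:133173561-133174002, 144 bp from LYPD1. The locus chr19:37501681-37502085 near the zinc-finger gene ZNF568 had 2 and 13 fragments, a ratio with an interval of 1.28 to 51.6. In the other direction, chr15:45740542-45740959 near C15orf48 had 13 and 1 fragments, with an interval of 0.00158 to 0.446 for the ratio. The locus chr6:42420073-42420515, 283 bp before TRERF1, had 15 and 3 (0.0323 to 0.615), and chr5:75027192-75027592 near POC5 had 10 and 2 (0.0185 to 0.817). The locus chr1:151245856-151246317 near the proteasome gene PSMD4 had 10 and 1, and chr5:12563304-12563811 near LINC01194 had 11 and 1.

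A value of 0 in exactly 1 library was found for 52 of 1565 loci, 3.32% (95% exact binomial interval 2.49 to 4.33), against 6.18% of single-symbol rows and 8.14% of the shorter unnamed rows. The 0 was in the vector library for 37 loci and in the NFX1 library for 15. The NFX1 library was 1.15 times as deep, and nearly all loci had at least 10 fragments in 1 library or both. Among the loci with up to 20 fragments, 212 were at least 2-fold higher in the NFX1 library and 136 at least 2-fold lower, while from 31 to 50 fragments these numbers were 18 and 17. The part of depth in the tally was not tested. Among the 48 with recovered fragments the other library had 4 to 21 fragments, with a median of 10. Only 2 loci were at 0 in both libraries, 0.128%, while 34.7% of single-symbol rows were. An unnamed locus enters the table through assembled reads, while a named row can be listed without any. The shares at 0 set against single-symbol rows are thus shaped by how rows enter, and are no result about the loci.

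The authors' deposited table called 13 of the 1565 loci significant, and over all 14994 rows tested there 0.12% were called. Each of the 13 was listed at 0 in 1 library, and all had p = 5e-05 in the authors' deposited table. The other library held 12 to 17 fragments. Those with 0 in the vector library included chr1:212732585-212733951 with 17 fragments, 3176 bp from LOC101929565 and followed by ATF3, a stress-induced transcription factor gene, and chr9:80034599-80035434 near VPS13A with 16. The locus chr15:96667363-96668247, 2139 bp from the row of NR2F2, a nuclear receptor gene, had 15, as did chr1:33895858-33896545 near ZSCAN20. The locus chr1:9352176-9352731, 209 bp before SPSB1, had 13, and chr19:3213824-3214296 near NCLN, the gene of the endoplasmic reticulum protein nicalin, had 12. Those with 0 in the NFX1 library were chr21:46730412-46731536 with 13 fragments, and chr7:148886628-148887451 near ZNF282 and chr7:155394333-155394990 near RBM33 with 12 each. With 3 fragments for the count of 0, 10 of the 13 were 3.48-fold to 4.93-fold higher in the NFX1 library, with exact lower limits of 2.42-fold to 3.59-fold. The other 3 were 4.60-fold to 4.98-fold lower, with exact upper limits of 0.286 to 0.313 for the ratio of NFX1 to vector. The 13 loci were called on these same counts, so the limits understate the error and are no check of the calls. The changes of their nearest genes lay between -0.28 and 0.27, with 35.9 and 34.4 FPKM for SPSB1 and 9.57 and 9.24 FPKM for NR2F2.

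Only loci with a count of 0 were called, and p in the authors' deposited table jumped between counts of 0 and 1. Of the 46 tested loci at 0 in exactly 1 library with recovered fragments, 13 were called. With 0 fragments in 1 library and at least 13 in the other, p in the authors' deposited table was 5e-05 to 0.0002 over 8 loci, 7 of them called. With 0 and 10 to 12 fragments it was 5e-05 to 0.0013 over 33 tested loci, 6 of them called. With 1 fragment in place of 0, p in the authors' deposited table was 0.2458 to 0.2476 for 13 to 15 fragments in the other library and 0.24745 to 0.2535 for 10 to 12. With 3 fragments against 13 to 24 it was 0.0939 to 0.1752. None of the 1449 tested loci above 0 in both libraries was called, and the smallest p among them, 0.00245, had a q of 0.656 in the authors' deposited table. With 1 library a group, no spread between replicates enters these p-values.

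Loci and their nearest genes were set side by side in level and in change. Among loci within 1 kb of a named row, with at least 1 FPKM in a library on both sides, the median locus had 15.4% of the level of its neighbour, and 12 of 112 were above it. Across these 112 pairs Spearman's rho was 0.04 for the levels and 0.04 for the changes, over loci of the same libraries. At 1 to 10 kb rho for the changes was 0.17 over 74 pairs, and beyond 10 kb 0.07 over 84 pairs. The median locus had 8.82% of the level of its neighbour at 1 to 10 kb and 20.5% beyond 10 kb. These are descriptions of 2 libraries, and most of the loci rest on few fragments.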

How the data were processed

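The deposited table holds, per the file headers, FPKM of 1 vector and 1 NFX1 library, and for each row the authors' log2 fold change, test statistic (a score), q-value and p-value. The submitters' processing notes name hg19, Cufflinks 2.2.1 and TopHat2 2.1.0; settings, annotation, library type and scaling are not given in the sources used here. Groups were taken from the genotype label.

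Starts were converted to count from 1. The change was log2((NFX1 FPKM + 1)/(vector FPKM + 1)), counted for rows with at least 1 FPKM in a library. The length offset and the scale that make FPKM whole fragments were found by a grid search, tested on simulated data. Counting intervals are exact (Clopper-Pearson, 95%). Intervals of shares treat loci as independent, though some lie in groups. Where a count was 0, a fold with 3 fragments in its place is given beside the exact limit. Gene strands came from GENCODE by symbol, without coordinates, since that annotation is on another build. With 1 library per group no test was possible.

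The loci, the alternatives and the rule for named loci were chosen with earlier results of these data known. The rule took the 15 highest mean FPKM, up to 12 loci past 2-fold in each direction, loci the authors called, the 5 longest, the 3 farthest from a named row and those next to the length limit, of which the text describes most; those before genes or near TERT and NFX1, and the extremes of well-counted loci, were picked once values had been seen. Scripts ran in Python 3.11.15 with scipy 1.17.1, numpy 2.4.6, matplotlib 3.10.9 and pandas 2.3.3.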

Additional observations from a re-analysis of the deposited data

How the results depend on the processing

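The counts past 2-fold depended on settings that bear on low values. With a pseudocount of 0.1 FPKM 42 loci were higher and 24 lower, and with 5 FPKM 1 and 1. Among loci with at least 5 FPKM in a library 2 were higher and 1 lower, with a median change of 0.16. With a minimum length of 600 bp 3 were higher and 1 lower, and the same numbers held with 1000 bp. A limit of 1.5-fold gave 38 higher and 25 lower, and 4-fold 1 and 0. The median change, 0.06, stayed above 0 under each alternative tried for it, but was 0.02 with scaling to the upper quartile, 0.02 without a filter on low values and 0.03 with the pseudocount of 5 FPKM. The share of loci within reach of a named row was 56.1% for rows with at least 1 FPKM, 26.5% within 1 kb and 88.6% within 50 kb. The share at 0 in 1 library was 1.56% of loci with at least 1 FPKM and 1.38% of loci of at least 1000 bp. The counts past 2-fold stayed within 1.5 times under both rescalings. The alternatives without shared loci and without the most abundant locus were added after the data were seen. No paired analysis was possible because each group has 1 library. The cause of these shifts was not tested.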

Other observations

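Unnamed loci also lay in groups. Of 1542 distinct loci, 497 (32.2%) had another within 10 kb, in 211 chains, and 6 chains held 5 loci each. The chain near SEPT7P2 on chromosome 7 covered 7733 bp, with levels of 0.493 to 1.24 FPKM (vector) and 0.400 to 1.34 FPKM (NFX1). The chain near FBRSL1 on chromosome 12 covered 22174 bp, 43659 to 60019 bp from the gene, with levels of 0 to 0.831 and 0.262 to 0.793 FPKM. In each of these chains 3 loci were higher and 2 lower in the NFX1 library. Of 12 chains of 4 loci, 3 had every locus higher in the NFX1 library and 2 had every locus lower. The 4 loci near MKNK2 and MOB3A on chromosome 19 had medians of 0.153 and 0.415 FPKM, all higher. The 4 near LOC100130417 on chromosome 1 had 0.253 and 0.351 FPKM, all higher. The 4 near LOC101929124 on chromosome 19 had medians of 0.392 and 0.120 FPKM, all lower. These chains were chosen after their values were seen, and there is 1 library per group.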
